A study of Mus musculus with 8 samples.

Results

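Annexins are cytosolic proteins that bind acidic membrane phospholipids when calcium rises. They were examined here in brown adipose tissue (BAT), the fat depot that burns fuel for heat. The 8 annexin genes Anxa1, Anxa2, Anxa3, Anxa4, Anxa5, Anxa6, Anxa7 and Anxa11 were taken by name from the 31053 genes of the count table, whose Ensembl identifiers were matched to mouse gene symbols. All 8 had a row in the table, and 7 were among the 9264 genes with enough counts to be tested.

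Bulk RNA-seq had been made from BAT of 4 wild-type (WT) mice and 4 db/db mice, all 8 weeks old, to ask how obesity with leptin receptor deficiency alters this tissue. db/db mice lack the signalling form of the leptin receptor in every cell, overeat, and become obese and diabetic, so the genotype is not specific to fat. The labels give C57BL6/J as the strain of both groups and no further treatment. By the study's methods the mice were males and tissues were taken after a fast. The methods place the db/db mutation in B6.BKS(D)-Leprdb/J mice from Jackson and take WT mice from Charles River, whereas the list of materials gives another Jackson stock for db/db and Jackson for C57BL/6J, so vendor and strain background may differ with genotype and then cannot be told apart from it. The leptin receptor gene Lepr had 0 counts in all 8 libraries and offered no check of the labels. The labels also name the cell type as stromal vascular fraction, which would lack mature fat cells, yet the adipocyte genes Ucp1, Adipoq and Plin1 averaged 2248, 1534 and 520.6 CPM in WT, and the libraries are therefore described as whole BAT. The 4 WT libraries held 2374079 to 2615009 counts and the 4 db/db libraries 2382722 to 3240074. Levels are in CPM, counts relative to the total over the genes tested after a trimmed-mean (TMM) correction, and 3 counts in a library, taken as the detection floor, correspond to 0.902 to 1.33 CPM.

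All annexins share a core of repeats that holds the calcium and lipid sites, and differ in the tail before it, which sets their partners. Anxa1 is an anti-inflammatory protein that glucocorticoids induce and that acts through formyl peptide receptors. Anxa2 pairs with S100a10, binds actin and gathers plasminogen and its activator at the cell surface. Anxa3 is abundant in neutrophils, Anxa4 is typical of epithelia, and Anxa5 coats exposed phosphatidylserine, for which it is used as a probe of dying cells. Anxa6 carries a doubled core and links membranes to actin and cholesterol handling, Anxa7 binds sorcin, and Anxa11 ties RNA granules to lysosomes. Several of them seal torn plasma membranes, and in fat they are made by adipocytes as well as by stromal and immune cells.

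Of the 8 genes, 6 were higher in db/db, none was lower (all 7 tested had a positive fold change), Anxa7 did not pass the test and Anxa11 could not be tested. Here and throughout, a gene was called when its adjusted p from the quasi-likelihood test of edgeR was under 0.05. Of all genes tested, 15.8% were called higher and 27.7% were called in either direction. The median log2 fold change was 1.10 over the 7 annexins tested and 0.00664 over all genes tested. Summed over the 8 genes, annexin transcripts rose from 681.1 ± 57.5 CPM in WT to 1483 ± 87.3 CPM in db/db (SD, n = 4 each). In each of the 6 genes called, the 4 db/db libraries lay above all 4 WT libraries. This separation was seen in 15.3% of the genes tested, close to the share called higher, so it is not support separate from the calls. Bulk values cannot tell a change in the number of cells that make a transcript from a change in transcript per cell.

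To show the start regions of genes that rose by different amounts, the 250 bases before the RefSeq transcription start (build GRCm38.p6) are given for Anxa1, the most changed member, and for Anxa2 and Anxa5, the most abundant ones, each 5′ to 3′ on the gene's strand. Capitals mark letters that match an AP-1 site (TGANTCA), a GC box (GGGCGG) or a TATA box (TATAAA), searched on both strands. The Anxa1 stretch lies at chr19:20390672-20390921 on the minus strand, that of Anxa2 at chr9:69453433-69453682 on the plus strand and that of Anxa5 at chr3:36475888-36476137 on the minus strand.
Anxa1: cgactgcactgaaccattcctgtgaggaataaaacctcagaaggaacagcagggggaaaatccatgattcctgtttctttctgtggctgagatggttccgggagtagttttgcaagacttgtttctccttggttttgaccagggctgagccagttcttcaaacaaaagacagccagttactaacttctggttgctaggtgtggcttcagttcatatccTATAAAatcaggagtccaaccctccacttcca
Anxa2: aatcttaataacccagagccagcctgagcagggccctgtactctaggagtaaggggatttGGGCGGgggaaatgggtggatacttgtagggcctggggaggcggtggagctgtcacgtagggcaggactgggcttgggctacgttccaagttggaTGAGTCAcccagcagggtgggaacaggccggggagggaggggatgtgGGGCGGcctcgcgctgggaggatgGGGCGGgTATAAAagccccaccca
Anxa5: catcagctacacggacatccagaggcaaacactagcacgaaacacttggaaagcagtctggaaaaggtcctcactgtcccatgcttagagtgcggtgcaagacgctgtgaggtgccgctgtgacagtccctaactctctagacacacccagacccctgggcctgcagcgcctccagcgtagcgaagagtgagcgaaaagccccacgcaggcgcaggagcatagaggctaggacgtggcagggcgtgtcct

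The Anxa1 stretch held 1 TATA box and no other match. The Anxa2 stretch held 1 AP-1 site, 3 GC boxes and 1 TATA box, none overlapping another, and the Anxa5 stretch held none of these letters. Among 32851 RefSeq windows from 250 bases before to 50 bases after a start, 7.81% held the AP-1 letters, 35.7% the GC box and 13.6% the TATA box. Windows were found for 6 of the 8 annexins, and Anxa3 and Anxa6 had no entry. A letter match describes the sequence and is not evidence of binding.

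Anxa1 (ENSMUSG00000024659, chr19:20373428-20390944, minus strand, GRCm38) changed most. Its level was 1.62, 2.11, 1.88 and 2.55 CPM in WT replicates 1 to 4 and 49.3, 51.9, 27.5 and 25.3 CPM in db/db replicates 1 to 4. The WT values rest on only 4 to 6 counts per library, against 62 to 164 counts in db/db. The db/db libraries fell into a higher pair, replicates 1 and 2, and a lower pair, replicates 3 and 4, and even the lower pair lay far above WT. The log2 fold change was 4.22 (SE 0.34, adjusted p = 8.87e-08 in edgeR), and the group means differed 18.9-fold. Because WT stood near the detection floor, the size of this fold is less certain than its direction. Requiring at least 10 counts in every library removed Anxa1 from the test altogether.

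Anxa2 (ENSMUSG00000032231, chr9:69453620-69491795, plus strand) was the most abundant annexin by CPM. It stood at 291.4, 238.5, 233.0 and 264.0 CPM in WT and at 722.9, 536.7, 511.1 and 542.7 CPM in db/db. Replicate 1 of db/db was well above the other db/db libraries, which were close together and still above every WT library. The log2 fold change was 1.17 (SE 0.14, adjusted p = 1.06e-05 in edgeR).

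Anxa5 (ENSMUSG00000027712, chr3:36448923-36475894, minus strand) was the steadiest member in WT, at 218.1, 218.2, 208.5 and 200.3 CPM, a coefficient of variation of 4.07%. In db/db it was 409.7, 456.5, 388.3 and 475.8 CPM. The groups were well separated, and db/db replicate 1 did not stand apart here. The log2 fold change was 1.03 (SE 0.12, adjusted p = 9.15e-06 in edgeR).

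Anxa6 (ENSMUSG00000018340, chr11:54979108-55033445, minus strand) measured 188.2, 154.9, 136.4 and 150.3 CPM in WT and 338.4, 311.8, 395.4 and 344.5 CPM in db/db. Its highest db/db library was replicate 3, in contrast to Anxa2, and the groups did not overlap. Its log2 fold change was 1.14 (SE 0.14, adjusted p = 9.15e-06 in edgeR).

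Anxa3 (ENSMUSG00000029484, chr5:96793339-96845966, plus strand) was low. It had 14.2, 4.64, 7.14 and 6.79 CPM in WT and 19.0, 20.04, 14.6 and 16.4 CPM in db/db. WT replicate 1 almost reached the lowest db/db library, and the WT coefficient of variation was 50.5%, the largest among the 7 genes. The log2 fold change of 1.10 (SE 0.30, adjusted p = 0.0111 in edgeR) was therefore less precise than the like-sized changes of Anxa2, Anxa5 and Anxa6.

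Anxa4 (ENSMUSG00000029994, chr6:86736840-86793584, minus strand) had the smallest change called. It stood at 27.9, 21.1, 16.9 and 19.1 CPM in WT and 34.9, 35.95, 32.8 and 37.2 CPM in db/db. The 4 db/db libraries were nearly equal, whereas WT replicate 1 was again the highest of its group. The log2 fold change was 0.73 (SE 0.19, adjusted p = 0.00757 in edgeR). With a skeletal muscle score as a covariate, Anxa3 (adjusted p = 0.0928) and Anxa4 (adjusted p = 0.0847) no longer passed in edgeR, although their fitted folds, 1.48 and 0.98, were larger.

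Anxa7 (ENSMUSG00000021814, chr14:20455260-20480133, minus strand) did not pass. Its level was 24.7, 19.4, 34.6 and 18.3 CPM in WT and 32.2, 35.0, 34.1 and 30.5 CPM in db/db. WT replicate 3 lay inside the db/db range, while the other three WT libraries lay below it. The log2 fold change was 0.44 (SE 0.21, adjusted p = 0.124 in edgeR). Without WT replicate 3 it was 0.65 with an edgeR adjusted p of 0.0239, so 1 library decided the call.

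Anxa11 (ENSMUSG00000021866, chr14:25842156-25886804, plus strand) had 0 counts in all 8 libraries. This gene is known to be broadly expressed, so the 0 is not read as absence from BAT, and its cause was not tested. As counting error alone, a 0 would allow up to 3 counts in each library, or 0.902 to 1.33 CPM. Its antisense neighbour Anxa11os, which shares 113 exon bases with it, also had 0 counts, and the sources do not say if reads were assigned by strand. Shorter exon overlaps with other annotated genes exist for Anxa2 (98 bases, Gm16144), Anxa3 (112 bases, Gm42603) and Anxa4 (75 bases, Gm44036). Gm16144 had 0 counts, Gm44036 had at most 5, and Gm42603 had no row in the table. The levels of these 3 annexins are to that extent uncertain.

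**Figure D1:**
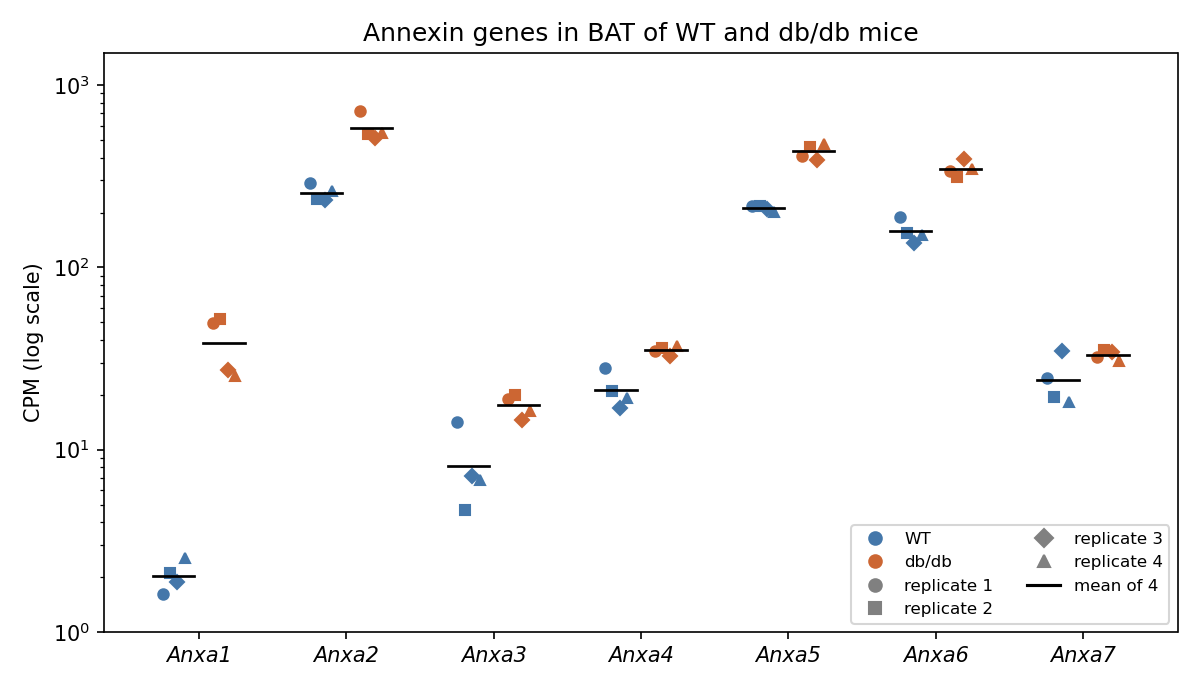
Level of each tested annexin in CPM (log axis) in each of the 4 WT (blue) and 4 db/db (orange) libraries, with the marker shape giving the replicate number and a bar at the mean of 4. The groups are separate for all genes shown except Anxa7, where WT replicate 3 at 34.6 CPM lies among the db/db libraries.

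Levels were compared between genes after dividing CPM by the kilobases of merged exon. In WT, Anxa5 led at 118.9 ± 4.84 CPM per kb, followed by Anxa2 at 68.8 ± 7.18 and Anxa6 at 53.7 ± 7.49 (SD, n = 4). A wide gap separated these from Anxa4 at 4.58 ± 1.03, Anxa7 at 4.04 ± 1.24, Anxa3 at 2.25 ± 1.14 and Anxa1 at 0.70 ± 0.14 CPM per kb. The libraries of Anxa2 and Anxa6, of Anxa4 and Anxa7, and of Anxa7 and Anxa3 overlapped, so these neighbours in the WT order were not distinct. In db/db the leading order was the same, with Anxa5 at 243.4 ± 22.8, Anxa2 at 155.0 ± 26.1 and Anxa6 at 118.6 ± 11.9 CPM per kb, and no overlap among them. Anxa1 moved from last place to just below these at 13.2 ± 4.82 CPM per kb, above Anxa4 at 7.58 ± 0.40, Anxa7 at 5.50 ± 0.34 and Anxa3 at 4.80 ± 0.67. In db/db only Anxa7 and Anxa3 overlapped. The methods name the NEGEDIA Digital mRNA-seq service and do not state where along the transcript the reads fall. A library primed at the 3′ end would make this division by length misleading. The lead of Anxa5 depends on it, as by CPM alone Anxa2 (256.7 in WT, 578.4 in db/db) exceeded Anxa5 (211.3 and 432.6).

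Differences between family members were examined through the log2 ratio of 2 annexins within each library. Anxa11 was left out, which leaves 21 pairs. The genotypes did not overlap in 11 pairs, or 52.4%, against 29.0% of all pairs of genes tested. Each such pair had an exact two-sided permutation p of 0.0286, the smallest that 4 against 4 libraries can give, and 0.0545 after Benjamini-Hochberg adjustment over the 21 pairs, so no ratio passed the threshold. All 6 pairs with Anxa1 were separate. The log2 ratio of Anxa1 to another annexin was higher in db/db by 2.59 (to Anxa2) to 3.28 (to Anxa7). These sizes are shrunk by the prior count of 2 in the log2 CPM, as Anxa1 had only 4 to 6 counts per WT library. The edgeR log2 fold changes were 4.22 for Anxa1, 1.17 for Anxa2 and 0.44 for Anxa7. Of the other 15 pairs, 5 were separate, or 33.3%, close to the 29.0% of all gene pairs, so the excess over that background lay in the pairs with Anxa1. As an example of a separate pair without Anxa1, the log2 ratio of Anxa2 to Anxa4 was 3.35 to 3.74 in WT and 3.84 to 4.34 in db/db. Among the 3 abundant annexins the ratios overlapped between genotypes. The ratio changed by 0.13 for Anxa2 to Anxa5, by 0.02 for Anxa2 to Anxa6 and by -0.12 for Anxa5 to Anxa6 on the log2 scale. SDs between libraries of 0.10 to 0.30 would hide small differences.

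**Figure D2:**
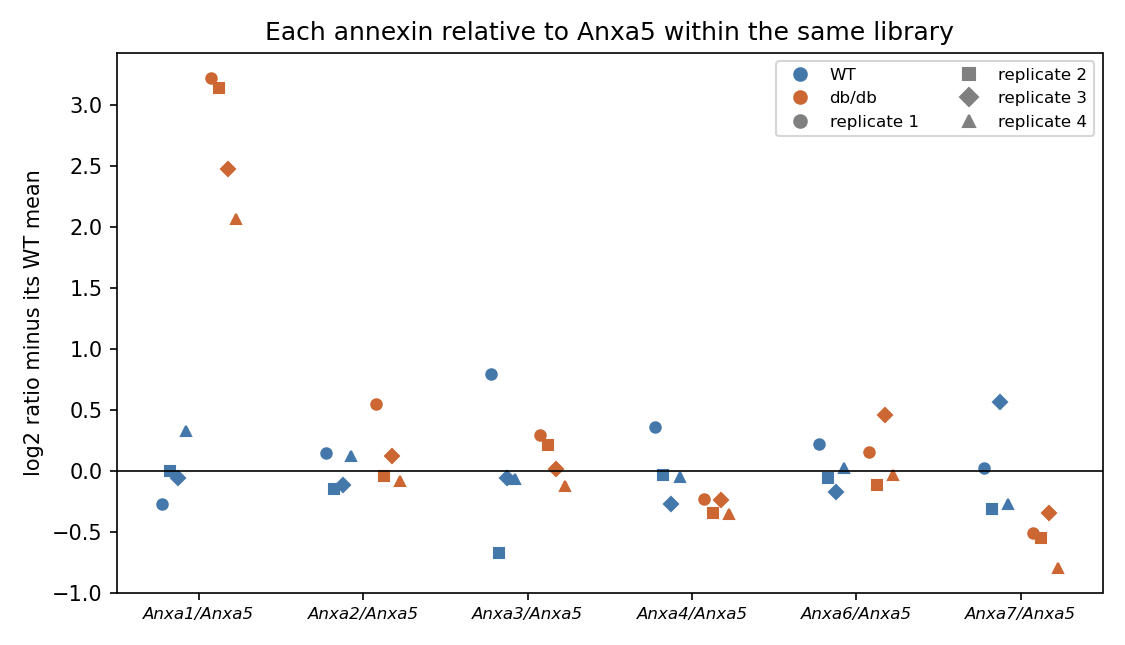
Log2 ratio of each tested annexin to Anxa5 in the same library, minus its WT mean, for the 4 WT (blue) and 4 db/db (orange) libraries, with the marker shape giving the replicate number. The Anxa1 ratio is higher by 2.72 on average in db/db with no overlap, the Anxa7 ratio is lower in every db/db library, and the ratios of Anxa2, Anxa3, Anxa4 and Anxa6 overlap between the genotypes. A prior count of 2 shrinks the rise of the Anxa1 ratio.

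Other annexin genes were low, without counts or without a row in the table. Anxa8 was at 3.05 ± 1.82 CPM in WT and 5.85 ± 0.70 CPM in db/db (SD, n = 4), with a log2 fold change of 0.92 that did not pass (SE 0.44, adjusted p = 0.128 in edgeR). Anxa9 had 0 to 5 counts per library and Anxa10 had 0, both too few to test, and Anxa13 had no row.

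The partners of annexins formed a list of 10 genes, made of S100 proteins and others that bind an annexin and of members of the complex around the calcium sensor ALG-2 (Pdcd6), which binds Anxa7 and Anxa11. Of the 10, 7 were higher in db/db, against 15.8% of all genes tested, and none was lower. Most S100 proteins are small calcium sensors, and several dock on annexin tails. S100a6 (31.1 to 584.1 CPM in group means, log2 fold change 4.23, SE 0.17, adjusted p = 2.44e-11 in edgeR) and S100a4 (5.87 to 77.6 CPM, 3.73, SE 0.33, adjusted p = 2.58e-07) rose most on this list, next to 4.22 for Anxa1. S100a11, a partner of Anxa1, went from 150.7 to 580.4 CPM (log2 fold change 1.95, SE 0.13, adjusted p = 1.16e-08 in edgeR). Ahnak, a giant scaffold protein that binds the Anxa2 and S100a10 complex, went from 234.6 to 792.6 CPM (log2 fold change 1.76, SE 0.13, adjusted p = 6.03e-08 in edgeR). Of the remaining calls, the direct partners were chosen after their values were seen. S100a10, the light chain of the Anxa2 complex, rose from 59.3 to 166.1 CPM (log2 fold change 1.48, SE 0.14, adjusted p = 4.21e-07 in edgeR). Sri, which encodes sorcin, rose from 46.0 to 97.1 CPM (log2 fold change 1.08, SE 0.14, adjusted p = 2.59e-05 in edgeR), while its partner Anxa7 did not pass. Pdcd6 at -0.18 (adjusted p = 0.565 in edgeR) and Pdcd6ip, the ESCRT adaptor ALIX, at 0.20 (adjusted p = 0.424) were not called. S100a4 shares exon bases with the annotated gene Gm42674 and is uncertain to that extent. On the partner list 6 genes were called higher with the skeletal muscle covariate.

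**Figure D3:**
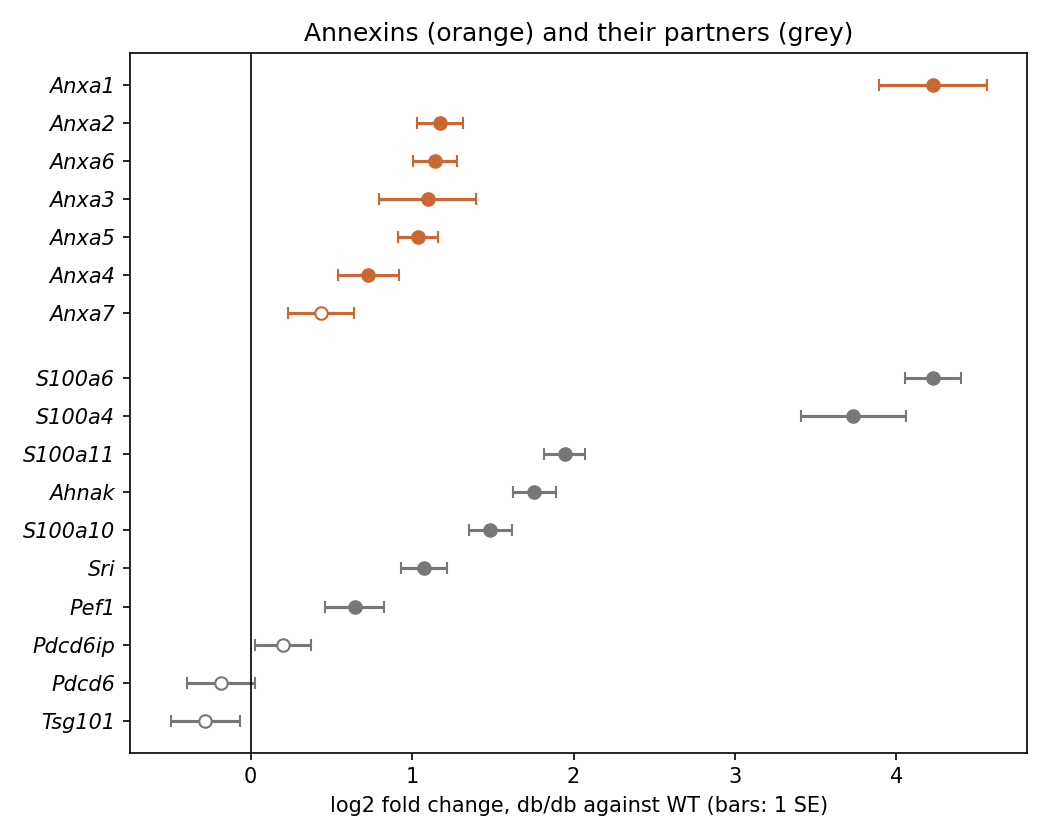
Log2 fold change, db/db against WT, from edgeR with its standard error for the 7 tested annexins (orange) and the 10 genes of the partner list (grey), filled where the adjusted p was under 0.05. Anxa1, S100a6 and S100a4 lie between 3.73 and 4.23, the other called genes between 0.64 and 1.95, and Anxa7, Pdcd6, Pdcd6ip and Tsg101 were not called.

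Of 6 genes that control Anxa1 or through which it is known to act, 2 could be tested by edgeR and neither was called or had an unadjusted p under 0.05. Nr3c1, the glucocorticoid receptor, was at 27.0 ± 7.37 CPM in WT and 24.8 ± 3.72 in db/db (log2 fold change -0.12, SE 0.21, adjusted p = 0.720 in edgeR). Tsc22d3, which encodes the glucocorticoid-induced leucine zipper GILZ, was at 78.9 ± 27.7 and 101.2 ± 19.4 CPM (0.36, SE 0.20, adjusted p = 0.207). The receptors Fpr1, Fpr2 and Fpr3 had at most 1, 6 and 0 counts in any library, and Pla2g4a, the phospholipase that Anxa1 inhibits, had at most 5, so differences in these were not detectable at this depth.

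Of the 8 genes of plasminogen activation that are reported, the process that Anxa2 promotes at the cell surface, 3 were tested. Among these 3, 2 were higher, against 15.8% of all genes tested, and none was lower. The calls were Serpine2, an inhibitor of the activators (18.4 to 76.7 CPM, log2 fold change 2.06, SE 0.17, adjusted p = 1.85e-07 in edgeR), and the activator Plau, or urokinase (2.37 to 6.55 CPM, 1.43, SE 0.44, adjusted p = 0.0224). With the skeletal muscle covariate, 1 of these genes was called. Plgrkt, a plasminogen receptor, was at -0.01 (SE 0.22, adjusted p = 0.985 in edgeR). Plg, Serpinf2 and Serpinb2 had 0 counts in every library.

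Of 13 genes of plasma membrane repair and caveolae, 12 were tested. Among these 12, 5 were higher, against 15.8% of all genes tested, and none was lower. Ehd2, a caveolar ATPase, rose from 51.6 to 221.8 CPM (log2 fold change 2.10, SE 0.16, adjusted p = 7.83e-08 in edgeR). Myof, a ferlin that fuses membranes, rose from 3.66 to 14.2 CPM (log2 fold change 1.95, SE 0.31, adjusted p = 1.35e-04 in edgeR). The caveolar coat genes Cavin1 (log2 fold change 1.42, SE 0.14, adjusted p = 1.43e-06 in edgeR) and Cav1 (1.22, SE 0.14, adjusted p = 4.15e-06) also rose. The calpain subunit Capns1 at 0.31 (adjusted p = 0.0957 in edgeR) and the ESCRT gene Chmp4b at 0.16 (adjusted p = 0.377) were abundant and not called. Of the 5 calls, Ehd2, Cavin1 and Cav1 belong to caveolae, the membrane pits that crowd the adipocyte surface. On this list 4 genes were called higher with the skeletal muscle covariate.

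Of 13 genes that expose or recognise phosphatidylserine, the lipid Anxa5 binds, 11 were tested, 6 were higher and 2 were lower. The shares over all genes tested were 15.8% higher and 27.7% in either direction. The bridging proteins Mfge8 (156.0 to 1396 CPM, log2 fold change 3.16, SE 0.18, adjusted p = 2.74e-09 in edgeR) and Gas6 (7.74 to 40.3 CPM, 2.37, SE 0.26, adjusted p = 2.98e-06) rose, as did Axl, a receptor for Gas6 (10.7 to 42.4 CPM, 1.99, SE 0.23, adjusted p = 6.92e-06). The scramblase gene Xkr8 was lower (5.79 to 1.88 CPM, log2 fold change -1.62, SE 0.50, adjusted p = 0.0222 in edgeR). Tmem30a, the chaperone of flippases, at 0.10 (adjusted p = 0.609 in edgeR) and the receptor Mertk at -0.48 (adjusted p = 0.0816) were not called. With the skeletal muscle covariate the list had 3 higher and 0 lower.

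Markers of several cell types moved with genotype beside the annexins. As background, 1466 (15.8%) of all 9264 genes tested were called higher and 1102 lower. Macrophage markers were higher for 10 of 10 tested of 11 listed, their summed level lying at 156.6 to 203.6 CPM in WT against 743.2 to 1303 CPM in db/db. Fibroblast markers were higher for 8 of 8, with sums of 604.8 to 754.5 CPM against 1164 to 2539 CPM. Skeletal muscle markers were higher for 12 of 12, with sums of 436.2 to 1559 CPM against 2301 to 11430 CPM, the highest in db/db replicate 1. White adipocyte markers were higher for 3 of 4 tested of 5 listed, with sums of 45.2 to 52.2 CPM against 1175 to 1252 CPM. Brown adipocyte markers were lower for 6 and higher for 1 of 8 tested of 10 listed, with sums of 10980 to 12800 CPM against 6762 to 9346 CPM. The 6 lower were Ucp1, Cidea, Adrb3, Ppargc1a, Cox7a1 and Cox8b. The list also held the general adipocyte genes Plin1, the 1 called higher (520.6 to 898.3 CPM in group means), and Adipoq, not called (1534 to 1909 CPM, adjusted p = 0.112 in edgeR). Endothelial markers were lower for 3 of 7 tested of 8 listed (277.6 to 340.3 against 214.6 to 249.7 CPM). Smooth muscle markers were higher for 1 of 2 tested of 4 listed. The call was Acta2 (23.2 to 106.6 CPM in group means), while Myh11 was at 6.23 and 7.32 CPM (adjusted p = 0.737 in edgeR). Of 6 mesothelial markers 1 could be tested and was lower, and none of 6 lymphocyte markers could be tested. With the skeletal muscle score as a term, the log2 fold change was 3.71 for Anxa1 (adjusted p = 3.58e-05 in edgeR), 0.97 for Anxa2 (adjusted p = 0.0152), 1.22 for Anxa5 (adjusted p = 7.71e-04) and 1.22 for Anxa6 (adjusted p = 0.00241), and the values for Anxa3 and Anxa4 are given above. The score was -1.35 to -0.098 in WT libraries against 0.018 to 1.63 in db/db libraries, so it moves with genotype and the fit separates them only in part. The part of the other cell types in the annexin differences was not tested.

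For Anxa3, which neutrophils make in quantity, the neutrophil list is the closest. Its 8 markers summed to 4.13 to 19.5 CPM in WT and 24.8 to 35.8 CPM in db/db, and 1 of the 2 tested was higher. The call was S100a8 (2.41 to 15.7 CPM in group means), while S100a9 (4.10 to 8.42 CPM, adjusted p = 0.162 in edgeR) was not called. The rise of the sum lay in these genes. Mmp9 was not tested and stood at 4.29 and 3.56 CPM. The other 5, Ly6g, Csf3r, Retnlg, Ngp and Camp, had fewer than 10 counts in every library. Without db/db replicate 1, the library richest in muscle transcripts, the same number of annexins, 6, was called higher.

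**Figure D4:**
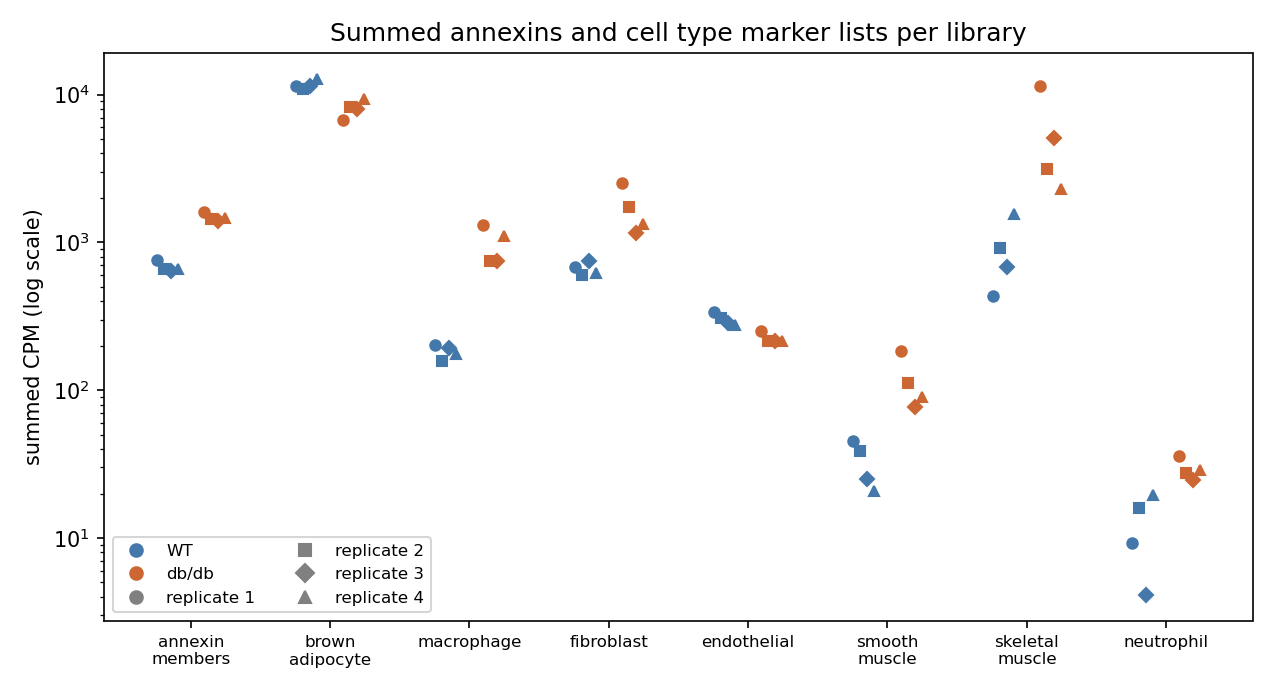
Summed CPM (log axis) of the 8 annexins and of 7 cell type marker lists in the 4 WT (blue) and 4 db/db (orange) libraries. The annexin sum lies between 638.4 and 766.1 CPM in WT and between 1404 and 1606 CPM in db/db, and macrophage, fibroblast and skeletal muscle sums are also higher in every db/db library.

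The genes whose pattern over the 8 libraries was most like that of each annexin were sought among 4531 genes with a mean of at least 20 CPM, by the root mean square difference of log2 CPM set to the WT mean. A small difference means that a gene rose by the same fold with a like spread, and many genes separate the genotypes. The closest to Anxa1 were Fhl1, a LIM-domain protein of muscle (difference 0.346), and Tuba1a, an alpha tubulin (0.390). Their edgeR log2 fold changes were 3.62 and 3.57, below the 4.22 of Anxa1, whose low WT counts the prior count compresses. Neither gene was as close as the nearest genes of the abundant annexins. Anxa2 was nearest to Rbm28, a nucleolar RNA-binding protein (0.0832), and Actb, cytoplasmic beta-actin (0.0999), which rose from 976.2 to 2312 CPM. Anxa5 was nearest to Msn, which encodes the membrane-to-actin linker moesin (0.0825), and Cenpb (0.0869). Anxa6 was nearest to Pls3, an actin-bundling plastin (0.111), and Tspan17 (0.142), Anxa3 to Afap1 (0.223) and Cltb (0.242), Anxa4 to Arhgef18 (0.122) and Ccser2 (0.126), and Anxa7 to Ggact (0.149) and Itgb5 (0.150).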

How the data were processed

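Bulk RNA-seq libraries of BAT from 4 WT and 4 db/db mice were analysed, grouped by sample title. The authors deposited raw counts per Ensembl gene. By the study's methods these were made with bbduk, STAR and HTSeq-count on mm10, whereas the submitters' processing notes name Trimmomatic, HISAT2 and DESeq2, so the aligner is uncertain. Use of strand or molecular identifiers is not given in the sources used here, and intervals and floors cover counting error only. The authors' normalized table and the sample sheet were not used here.

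Identifiers were matched to GENCODE M21 (GRCm38) for 30934 of 31053 genes, and the unmatched 119 held at most 0.00758% of any library. Genes were filtered with filterByExpr (minimum count 10, minimum total 15), which left 9264, and scaled by TMM. CPM use the filtered total times the TMM factor. Genotype was tested with edgeR 4.0.16 in R 4.3.3 (quasi-likelihood F test), adjusted by Benjamini-Hochberg over all genes tested at 0.05, and standard errors come from the F statistic. This called 1466 genes higher and 1102 lower. The study used DESeq2, run here as an alternative (1.42.0) beside limma-voom (limma 3.58.1), other scalings and filters, the replicate number as a block, a skeletal muscle covariate (the mean z-score of 12 muscle markers in each library) and leaving out each library. Log2 ratios used a prior count of 2. Of 28 pairs foreseen, 21 could be formed. In simulated counts with known changes, nearly all changed genes were called, but false calls made up more than the nominal share of calls under both spreads simulated, so calls near the threshold are less certain than their adjusted p.

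Replicate numbers 1 to 4 occur in both genotypes but belong to different animals, and same-numbered libraries did not deviate together (r from -0.08 to 0.05 across genes), so they were not treated as pairs. Replicates of a genotype differed beyond counting noise in every pair (chi-square over degrees of freedom 4.16 or more), so none was a copy of another.

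The annexins and all gene lists were chosen with earlier results of these data known. From each pathway list, up to 4 called genes with the largest absolute fold and up to 2 uncalled genes with the highest mean were named, plus 2 genes most like each annexin. List counts without db/db replicate 1 and with the muscle covariate were added after seeing the data. Protein sequences were not used here. One gene of the plasminogen list is not reported here and was left out of that list's counts. Plots were made in matplotlib 3.10.9 (Python 3.11.15).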

Additional observations from a re-analysis of the deposited data

Results flagged for a closer look

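Among 34 groups of 4 libraries examined (annexin levels and summed lists), 4 held a library whose gap to the others, relative to the range, exceeded Dixon's critical value, where chance gives about 1.7. Anxa2 in db/db replicate 1 reached 722.9 CPM, with 511.1 to 542.7 CPM in the other db/db libraries. In the same library the summed endothelial markers stood at 249.7 CPM, against 214.6 to 216.8 CPM, and the summed lymphocyte markers at 13.2 CPM, against 0.372 to 2.23 CPM. The lymphocyte sum was also apart in WT replicate 2, at 10.1 CPM against 0.376 to 1.70 CPM. No lymphocyte marker had enough counts to be tested.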

How the results depend on the processing

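The fitted log2 fold change of each annexin was positive under every alternative that could test it. The number called higher was 6 in all but 3 settings. It was 5 with at least 10 counts required in every library, which drops Anxa1, 4 with the skeletal muscle covariate, which loses Anxa3 and Anxa4, and 7 without WT replicate 3, which adds Anxa7. None was called lower in any setting. Log2 fold changes ran from 3.71 to 4.38 for Anxa1, 0.97 to 1.23 for Anxa2, 0.91 to 1.49 for Anxa3, 0.62 to 0.98 for Anxa4, 0.99 to 1.22 for Anxa5, 1.07 to 1.23 for Anxa6 and 0.32 to 0.66 for Anxa7. Over all genes, 2568 differed, and 605 did with the muscle covariate, which itself rises with genotype. The other planned settings gave 2018 to 3170 and leaving out a library 2110 to 2422. With the replicate block 2557 genes differed and 6 annexins were higher, so it changed no annexin call. Pairs with separate ratios numbered 11 to 13. With the muscle covariate, 6 partners, 1 plasminogen gene and 4 membrane repair genes were higher, and without db/db replicate 1 the counts were 7, 2 and 5. The phosphatidylserine list had 5 higher and 1 lower without that library and 3 higher and 0 lower with the covariate. Depth limits Anxa1 in WT and the formyl peptide receptors, the cause of the 0 counts of Anxa11 was not tested, and bulk tissue does not resolve which cells carried the annexin transcripts.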

Other observations

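Within 250 kb of Anxa1, 1 other tested gene was found. This was Aldh1a1, which makes retinoic acid from retinal and lies 101771 bases away on chromosome 19. It was also higher in db/db, with a log2 fold change of 2.74 and an edgeR adjusted p of 1.66e-06, and was singled out after its values were seen. The nearest tested neighbours of Anxa2, Ice2 at -0.44 (edgeR adjusted p = 0.28) and Rora at 0.13 (adjusted p = 0.636), were not called. Over all 8 annexins, 40 tested neighbours lay within 250 kb, of which 5 were called higher and 6 lower, or 27.5% against 27.7% of all genes tested, so the calls listed here do not set these loci apart from the rest. Near Anxa6, 1 of 9 was higher (Tnip1, 0.91, edgeR adjusted p = 6.04e-04) and 3 were lower. These were Ccdc69 at -1.08 (edgeR adjusted p = 0.0137), Gpx3 at -1.25 (adjusted p = 1.25e-04) and Slc36a2 at -0.86 (adjusted p = 2.61e-04). Near Anxa7, 2 of 13 were higher, Myoz1 at 2.88 (edgeR adjusted p = 1.7e-04) and Dnajc9 at 1.17 (adjusted p = 0.0106), and 1 was lower, Mrps16 at -0.72 (adjusted p = 0.00169). Near Anxa4, 1 of 10 was higher, 2310040G24Rik at 1.77 (edgeR adjusted p = 0.00608), and 2 were lower, 1600020E01Rik at -1.22 (adjusted p = 0.00257) and Snrnp27 at -0.43 (adjusted p = 0.0285). No tested neighbour of Anxa3, Anxa5 or Anxa11 was called by edgeR.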
